A study of Mus musculus with 7 samples.

Results

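Ribosomal protein genes encode the proteins that, with ribosomal RNA, form the cytosolic ribosome. The genes were chosen by name among protein-coding rows of the count table, as names that begin with Rpl or Rps and a number, or with Rplp, leaving out the Rps6k kinases. This gave 93 genes of the 49164 rows with counts, 57 with large subunit names and 36 with small subunit names. Of these, 76 carry the standard name of a ribosomal protein (46 large, 30 small), 9 are paralogs, 7 have pseudogene names and 1, Rps19bp1, encodes a protein that binds Rps19. A gene was tested if it passed a filter on low counts, which left 86 of the 93 among 20420 genes. The 76 standard genes were all among them, and the 7 left out were 4 paralogs and 3 pseudogene-named rows.

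Bulk RNA came from the medial amygdala, which processes social odours and reproductive cues, of 4 male and 3 female mice. The sample labels call the strain Trap-Ai9 and the design text calls it TRAP2-Ai9. In it a tamoxifen-dependent Cre driven by Fos turns on a lasting red reporter in active cells, and all animals were sacrificed at 2 months of age. The males received oral tamoxifen at postnatal day 24 and the females at 6 weeks, per the sample labels, while the design text gives day 24 for the whole series, so sex cannot be told apart from the age at tamoxifen or from the interval to sacrifice. The tissue was cut from both hemispheres around a fluorescent area called DIMPLE, which the labels do not spell out, and it was sequenced whole, so the values are not those of the marked cells. The percent DIMPLE of the pieces was 40, 18, 32 and 29 in males 1 to 4, against 25, 20 and 20 in females 1 to 3. Nothing in the labels beyond the separate titles says that each library is 1 animal, so p-values measure the spread between these libraries.

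A ribosome holds 1 copy of most of its proteins, and cells keep the output of the many scattered genes in balance. Their mRNAs begin with a C followed by a run of pyrimidines, the 5′ terminal oligopyrimidine or TOP motif, through which mTOR signalling and the repressor Larp1 set their translation together. In the brain, ribosomes stand in cell bodies and also in dendrites and axons, and mRNAs of ribosomal proteins are found in neuronal processes.

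RefSeq promoter sequence (GRCm38.p6) was at hand for 66 of the 93 genes and 56 of the 76 standard ones. The 30-base windows below run from 10 bases before to 20 bases from the annotated start, with every run of at least 6 C or T letters in capitals, whether or not it covers the start at base 11. Rps6, the phosphorylated target of S6 kinase, and Rpl14, among the steadiest members here, show long runs. In both the run covers the start. Rpl39, the most variable standard member, has its run after the start. The Rps27 family is shown because its members could share reads, and Rps27l, whose run lies wholly before the start, is given at the first of its 2 annotated starts.
Rps6 (chr4:86857348-86857377, minus strand): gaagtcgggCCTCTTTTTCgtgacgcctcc
Rpl14 (chr9:120571507-120571536, plus strand): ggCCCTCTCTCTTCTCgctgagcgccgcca
Rpl39 (chrX:37085203-37085232, minus strand): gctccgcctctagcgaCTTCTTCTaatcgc
Rps27 (chr3:90213629-90213658, minus strand): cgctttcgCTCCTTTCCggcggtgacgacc
Rps27rt (chr9:114982720-114982749, minus strand): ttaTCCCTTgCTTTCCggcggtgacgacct
Rps27l (chr9:66946076-66946105, plus strand): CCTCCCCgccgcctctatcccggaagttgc

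Such a run lay within 5 bases before to 10 bases from the start in 25 of 56 standard members, or 44.6%, so most of them had none there, and in 14.8% of 27025 genes with a promoter. On the other strand, where it reads as a run of A or G, the shares were 10.7% of the standard members and 18.4% of all genes. The letters CCGGAAG, the core that ETS family factors bind, stood on either strand of the 300-base promoter in 41.1% of the standard members and 9.93% of all genes. These are matches of letters and not measured sites. The windows of Rps27 and Rps27rt share an unbroken run of 19 bases, and those of Rps27 and Rps27l one of 4 bases.

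Depth and cell makeup differed between the libraries. Total counts ranged from 29049604 in male 1 to 46494588 in male 3, a depth at which counting error is small for all but the low members. The tissue label was checked against markers of brain cells: the 16 neuronal markers and 10 astrocyte markers were detected and tested, and the lists hold no marker of the medial amygdala itself. Male 3 stood apart in choroid plexus and oligodendrocyte markers. Its 10 choroid plexus and ependyma markers summed to 14856.8 CPM (counts scaled to a common library size), of which Ttr, the thyroxine carrier made by choroid plexus, gave 13618.0, against sums of 88.58 to 245.1 CPM in the other males and 96.1 to 499.5 CPM in females. Exceptions in that list were Ccdc153, Tmem212 and Rarres2, at 21, 19.98 and 12.03 CPM in male 3, against 74.64, 59.41 and 34.82 CPM in male 1. Its 10 oligodendrocyte markers summed to 9311.7 CPM, against 2866.7 to 4052.6 CPM in the other males and 1568.4 to 3409.4 CPM in females. The 16 neuronal markers had a median male over female log2 fold change of -0.02. Among them Slc17a7 had 405.5, 145, 442.1 and 793.4 CPM in males 1 to 4, against 48.79, 55.9 and 88.74 CPM in females 1 to 3. Slc32a1 went the other way, with 48.36, 101.3, 63.23 and 45.86 CPM in males 1 to 4, against 112, 119.2 and 87.42 CPM in females 1 to 3. At an unadjusted p under 0.05 by edgeR, 2 neuronal markers were higher in males and 1 lower. Of the oligodendrocyte markers 5 were higher and 0 lower, where 4.71% of all genes passed in either direction. None of these passed after adjustment, where 0.0245% of all genes did. The part of cell makeup in the male over female estimates was not tested.

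Ribosomal protein mRNA made up about 1% of the counts, and its share differed about 2-fold between animals without separating the sexes. The 93 genes took 1.725%, 1.103%, 0.9562% and 1.242% of raw counts in males 1 to 4, against 1.387%, 0.8139% and 1.343% in females 1 to 3. Male 1 was highest and female 2 lowest, 2.12-fold apart, and the groups overlapped. In a bulk sample, fewer cells rich in these mRNAs and less of them per cell cannot be told apart.

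The 46 standard large subunit genes summed to 9953.3, 6446.9, 5618.1 and 7064.8 CPM in males 1 to 4, against 7600.7, 5053.8 and 7396.5 CPM in females 1 to 3. The 30 small subunit genes summed to 7462.7, 4271.9, 3717.3 and 4938.8 CPM in males 1 to 4, against 5340.7, 3223.3 and 5157.0 CPM in females 1 to 3. Both subunits put the libraries in the same order. The large subunit averaged 7270.8 ± 1884.0 CPM in males (SD, n = 4) and 6683.7 ± 1415.2 CPM in females (SD, n = 3), and the small subunit 5097.7 ± 1653.9 CPM in males, against 4573.7 ± 1173.1 CPM in females. These differences were smaller than the spread within either group. The direction rested on single libraries: on the log2 scale the difference of the sums, over all names of a subunit, was 0.11 for the large and 0.15 for the small subunit, -0.05 for both without male 1, and -0.07 and -0.09 without female 2.

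**Figure D1:**
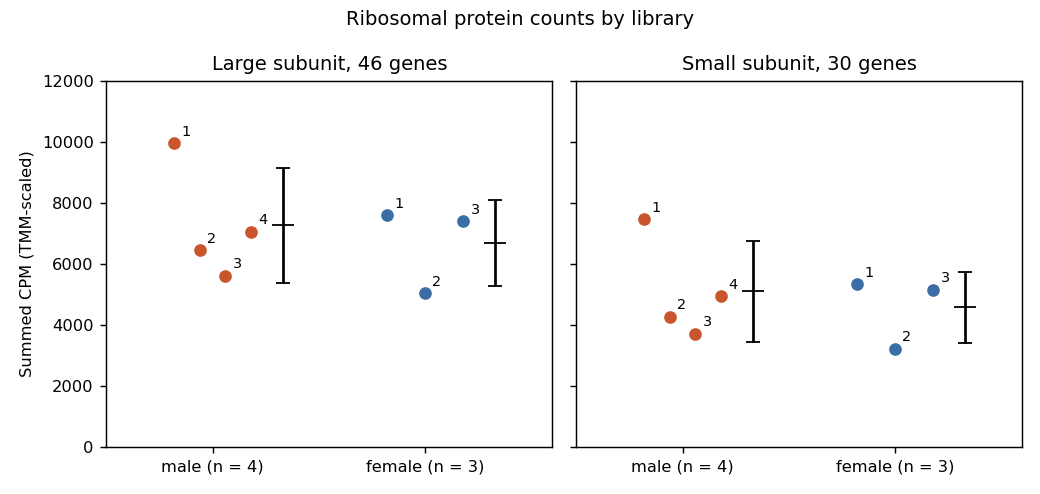
Summed CPM (vertical axis, from 0) of the standard large and small subunit genes in each library, with males left of females, replicate numbers beside the points and bars for mean ± SD. Male 1 is the highest point and female 2 the lowest in both panels, and the remaining males and females overlap.

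The balance between the subunits shifted far less than their level. The ratio of large to small summed CPM was 1.334, 1.509, 1.511 and 1.43 in males 1 to 4, against 1.423, 1.568 and 1.434 in females 1 to 3. It was lowest in male 1, where ribosomal protein mRNA was highest, and highest in female 2, where it was lowest. Its highest and lowest values were 1.176-fold apart. With mean CPM per kilobase of coding sequence in place of the sums, the ratio was again lowest in male 1, at 1.01. It was then highest in male 3, at 1.204, with female 2 at 1.128.

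The levels of single members spanned a wide range. Mean CPM of the standard members ran from 4.677 for Rps10 to 379.3 for Rpl41, with a median of 145.1. Rpl41, which encodes the shortest ribosomal protein, had 504.7, 338.2, 372.3 and 382.3 CPM in males 1 to 4, against 377.9, 239.8 and 439.8 CPM in females 1 to 3. It was followed in the large subunit by Rpl3, near the peptidyl transferase centre, at 359.7 CPM, and by Rpl4, which lines the exit tunnel, at 338.3 CPM. The highest of the small subunit were Rps14 at 324.1 CPM, Rps27a, made as a fusion with ubiquitin, at 313.4 CPM, and Rps3, at the mRNA entry channel, at 311.8 CPM.

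Levels of different genes can be set side by side only per length. Per kilobase of coding sequence, the 76 standard members had a median of 282.1 CPM, with quartiles of 188.2 and 414.3 CPM per kilobase, and the medians of the subunits were 275 for the large and 289.7 for the small. Untranslated sequence is not in this length, so the value of a very short gene is overstated, as in Rpl41 with 5057.3 CPM per kilobase from 75 coding bases.

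At the low end stood 4 standard members under 20 CPM, and other rows of the table lay over or beside each of them. Rps10 had 5.313, 5.564, 3.756 and 4.623 CPM in males 1 to 4, against 5.392, 2.662 and 5.431 CPM in females 1 to 3. A row named Gm49804 overlaps Rps10 on the same strand, and pseudogene rows named after Rps10 held 43.78% as many counts as Rps10 itself. Rpl13a, at 11.57 CPM, is overlapped by Gm45713 and its pseudogene row held 35.73% of its own count. Rpl24, at 12.15 CPM, is overlapped by Gm28037. Rpl23a, at 7.916 CPM, has 14 pseudogene rows with 9.972% of its count. The strand setting and the treatment of reads that match several places are not given in the sources used here, so the levels of these 4 genes are uncertain. Over all members the effect on the total was small: 309 pseudogene rows with Rpl or Rps names held 1.471% to 1.79% of the members' counts, per library.

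The members moved together from animal to animal. All 76 standard members were above their own 7-library mean in male 1, and 0 of 76 in female 2. Only 3 were above it in male 3, 24 in male 2, 50 in male 4, and 64 each in female 1 and female 3. The highest CPM of a gene fell in male 1 for 66 of the 76, and the lowest in female 2 for 59 and in male 3 for 15. On the log2 scale the median deviation from a gene's mean was 0.58 in male 1, -0.09 in male 2, -0.31 in male 3 and 0.03 in male 4, against 0.18, -0.47 and 0.11 in females 1 to 3. Over the 20334 other tested genes the same median stayed between -0.02 and 0.01 in every library, where the scaling largely sets it. Single genes outside the members varied as much: the median SD of log2 CPM over the 7 libraries was 0.37 for them and 0.35 for the standard members.

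**Figure D2:**
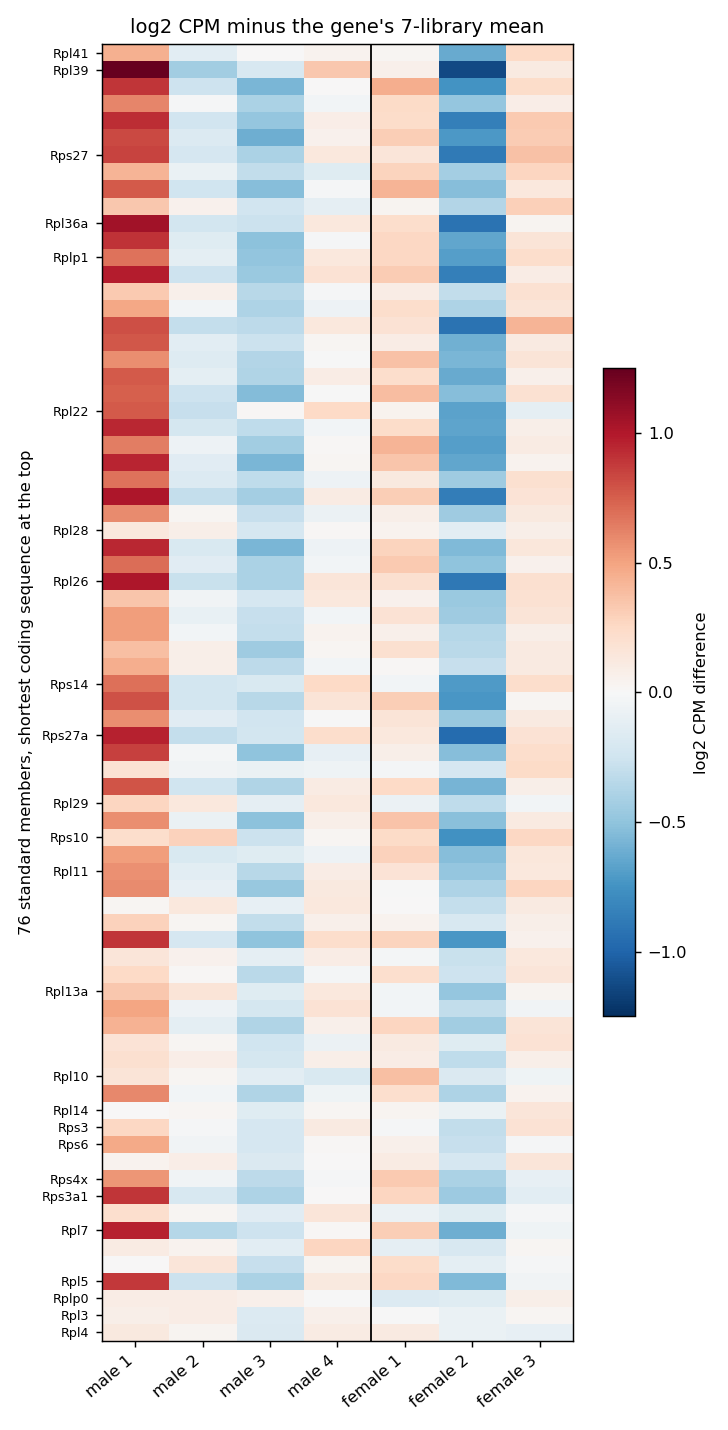
Difference of log2 CPM from the gene's 7-library mean (colour) for the 76 standard members, from the shortest coding sequence at the top to the longest at the bottom, in males (left of the line) and females, with some rows labelled. The male 1 column is high for nearly every gene and the female 2 column low, and both fade toward the bottom rows.

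As a description over the 7 libraries, the median Pearson r between 2 standard members was 0.87 over 2850 pairs, and 55 of 76 had r above 0.9 with the mean of the others. These points share library, depth and scaling. Rpl11, which joins Rpl5 and 5S RNA and can bind Mdm2, followed the others most closely, with r of 0.996. Rplp0, the base of the ribosomal stalk, followed them least, with r of 0.34, and was the 1 gene under 0.5. Rplp0 had 157.8, 157.5, 154.7 and 146.8 CPM in males 1 to 4, against 131.3, 132.6 and 155.6 CPM in females 1 to 3. Its stalk partner Rplp1 had 439.0, 252.5, 195.2 and 301.0 CPM in males 1 to 4, against 327.5, 169.9 and 319.3 CPM in females 1 to 3, and followed the shared order.

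The size of the swing differed between members. The highest over the lowest CPM had a median of 2.084 over the standard members, above 2 in 42 of 76 and above 3 in 13. Rpl39 (chrX:36346173-36349055, GRCm39), a short protein of the exit tunnel, was the widest: it had 384.0, 119.3, 139.8 and 203.3 CPM in males 1 to 4, against 167.6, 73.45 and 174.0 CPM in females 1 to 3. Its highest and lowest libraries were 5.228-fold apart. Rpl36a ranged over 3.943-fold, Rps27a over 3.802-fold and Rpl26 over 3.754-fold.

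Other members hardly moved. Rpl3 (chr15:79961992-79976069, GRCm39) had 378.6, 382.1, 318.9 and 375.1 CPM in males 1 to 4, against 359.0, 340.1 and 364.2 CPM in females 1 to 3, a range of 1.198-fold. Rpl4 ranged over 1.234-fold, Rpl14 over 1.228-fold and Rpl28, which rodent and human ribosomes have but budding yeast lacks, over 1.268-fold. The ratio of Rpl39 to Rpl3 CPM was 1.014, 0.3122, 0.4384 and 0.542 in males 1 to 4, against 0.4669, 0.216 and 0.4778 in females 1 to 3. Read by Rpl39 male 1 stood far above female 2, and read by Rpl3 they were close.

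The swing followed the length of the coding sequence. Among the 76 standard members, whose coding lengths ran from 75 to 1257 bases, the SD of log2 CPM fell with coding length (Spearman rho -0.58, a description over genes that share their libraries), and its rho with mean CPM was 0.20. The 9 members of up to 300 coding bases had a median deviation of 0.82 in male 1, against -0.72 in female 2. For the 18 members between 600 and 900 bases these were 0.30 in male 1 and -0.31 in female 2, and for the 3 above 900 bases 0.10 in male 1 and -0.09 in female 2. Exceptions were Rpl7, Rpl5 and Rps3a1, of 810, 891 and 792 coding bases, in which male 1 stood 2.974, 2.703 and 2.545-fold above female 2.

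Short genes that encode no ribosomal protein were also highest in male 1 and lowest in female 2, while the order of the libraries between these differed in part from that of the members. The 335 other protein-coding genes of up to 300 coding bases had median deviations of 0.52 in male 1, -0.10 in male 2, -0.20 in male 3 and -0.02 in male 4, against 0.08, -0.45 and 0.15 in females 1 to 3. The 2113 genes above 3000 coding bases were reversed, at -0.28 in male 1 and 0.22 in male 3, against 0.29 in female 2. Over 15445 other protein-coding genes, the difference of male 1 from female 2 had a Spearman rho of -0.41 with coding length. The part of this length trend in the members' shared swing was tested only by removing it. With each library's trend over the other genes subtracted, the standard members' median deviation was 0.29, -0.05, -0.19 and 0.04 in males 1 to 4, against 0.15, -0.24 and 0.02 in females 1 to 3. In male 1 and female 2 the deviation was thus smaller with the trend removed (0.29 against 0.58, and -0.24 against -0.47), and its direction was the same.

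**Figure D3:**
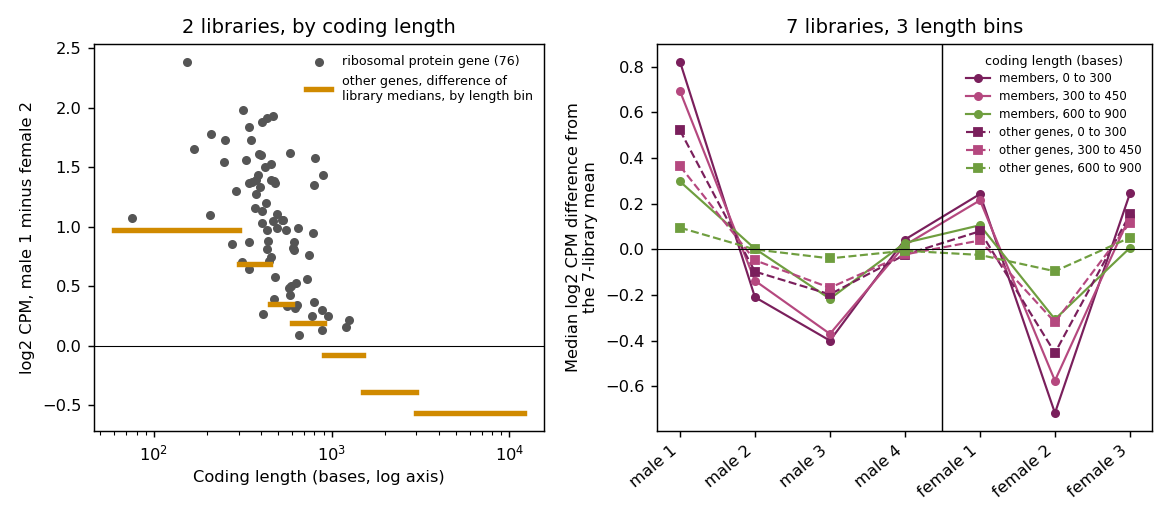
Left, log2 CPM of male 1 minus female 2 against coding length (log axis) for the 76 standard members (points), with the difference of the library medians of other protein-coding genes per length bin (bars). Right, median difference from the 7-library mean in 3 length bins, for members (solid) and other genes (dashed), in males and then females. Shorter genes swing more in both sets, and members lie further from 0 than other genes of their length in male 1 and female 2.

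Other parts of the ribosome and its supply did not all follow. Rpsa, a small subunit protein whose name the rule does not match, had 238.8, 200.1, 166.3 and 215.5 CPM in males 1 to 4, against 233.7, 168.5 and 200.9 CPM in females 1 to 3. Rack1, a signalling scaffold on the small subunit, had 128.4, 101.1, 88.48 and 109.9 CPM in males 1 to 4, against 105.8, 85.98 and 108.5 CPM in females 1 to 3. Both were highest in male 1 and low in male 3 and female 2. The 78 mitochondrial ribosomal protein genes summed to 6033.8, 4252.3, 3730.5 and 4267.8 CPM in males 1 to 4, against 4655.9, 3516.2 and 4574.0 CPM in females 1 to 3. These sums put the libraries in the same order as both cytosolic subunits, with median deviations of 0.36 in male 1 and -0.23 in female 2. The 13 mitochondrially encoded protein genes summed to 59895.8 CPM in male 1, against 22625.1 to 28788.6 CPM in the other males and 23943.6 to 27355.0 CPM in females. The 19 translation factors and other TOP genes, with a median coding length of 1101 bases, had a median deviation of only 0.07 in male 1 and -0.10 in female 2. Among them Tpt1, a TOP mRNA of a growth-related protein, had 623.6, 301.1, 331.9 and 366 CPM in males 1 to 4, against 363.7, 211 and 333.8 CPM in females 1 to 3. The 23 ribosome biogenesis genes (nucleolar factors, median coding length 1752 bases) were at -0.22 in male 1 and 0.17 in female 2, and the 17 mTOR pathway genes at -0.28 in male 1 and 0.13 in female 2. In these lists 0 genes passed the edgeR test for sex or for percent DIMPLE, where only 0.0245% and 0% of all genes did.

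No ribosomal protein gene passed the test between males and females. By edgeR's quasi-likelihood test with Benjamini-Hochberg adjustment, 0 of 86 members passed an adjusted p of 0.05 in either direction, where 0.0245% of all 20420 genes did. DESeq2 called 0 of the 91 members with a p (0.504% of genes with an adjusted p) and limma-voom 0 of 86 (0.0294%). At an unadjusted p under 0.05 each of the 3 tools also gave 0 members, where 4.71% of all genes passed in edgeR, 3.25% in DESeq2 and 4.7% in limma-voom. Among all members tested, 0 had male values that lay wholly above or wholly below the female ones, against 5.32% of all tested genes.

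The estimates leaned to one side without passing. The male over female estimate was positive for 76 and negative for 10 of the 86 members, where 52.3% of all genes were positive, and since members move together they are not independent counts. The median log2 fold change was 0.12 for the large and 0.11 for the small subunit, against 0.01 over all tested genes. Both medians turned negative without male 1, at -0.09 and -0.10, and without female 2, at -0.05 and -0.04. They were also negative with percent DIMPLE in the model, at -0.11 and -0.14.

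The members of lowest p were Rpl22 and Rpl29. Rpl22 (chr4:152410199-152418528, GRCm39), which also binds RNA outside the ribosome, had 102.1, 49.11, 60.95 and 71.32 CPM in males 1 to 4, against 61.92, 37.85 and 55.67 CPM in females 1 to 3. The groups overlapped, and the log2 fold change was 0.45 ± 0.27 (SE). Rpl29 averaged 69.24 ± 7.261 CPM in males (SD, n = 4) and 58.24 ± 5.929 CPM in females (SD, n = 3), with a log2 fold change of 0.25 ± 0.16 (SE). For each of the 86 the adjusted p by edgeR was 0.9999, and the lowest unadjusted p was 0.1228. Rpl39, Rpl13a and Rps27l had the next lowest p among positive estimates, with log2 fold changes of 0.61, 0.27 and 0.45. On the negative side came Rpl10-ps3 at -0.22, Rpl10, the protein that joins the large subunit last, at -0.09, Rpl14 at -0.06 and Rpl37a at -0.08.

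The X chromosome carries 4 standard members, genes with 1 copy in males and 2 in females. Rps4x, of the small subunit body, averaged 131.8 ± 36.02 CPM in males, against 122.9 ± 31.5 CPM in females (SD, n = 4 and 3). Rpl10 averaged 101.1 ± 11.19 CPM in males, against 107.9 ± 22.84 CPM in females. Rpl36a averaged 102.2 ± 49.38 CPM in males, against 76.03 ± 28.11 CPM in females. Rpl39 averaged 211.6 ± 120.3 CPM in males, against 138.4 ± 56.32 CPM in females. Their log2 fold changes ran from -0.09 for Rpl10 to 0.61 for Rpl39. In the edgeR test 0 of 4 passed, where only 0.0245% of all genes did.

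Percent DIMPLE is a number that the labels give for each library without saying how it was measured, and its slope was fitted with sex in the model. No member passed an adjusted p of 0.05 by edgeR, DESeq2 or limma-voom, where 0% of all genes passed in each tool. At an unadjusted p under 0.05, 14 of 86 members had a positive slope by edgeR, where 3.33% of all genes did, and 0 had a negative one, where 1.21% did. The median slope was 0.26 log2 units per 10 percentage points for the large and 0.31 for the small subunit, against 0.01 over all tested genes. Rpl7 (chr1:16171519-16174886, GRCm39) had the lowest p: 330.8, 133.3, 142.7 and 171.9 CPM in males 1 to 4 at 40, 18, 32 and 29 percent DIMPLE, against 211.2, 111.2 and 163.9 CPM in females 1 to 3 at 25, 20 and 20. Its slope was 0.59 ± 0.18 log2 units per 10 points (SE), with an adjusted p by edgeR of 0.8971. Rpl39 followed with a slope of 0.72 ± 0.25 and Rpl22 with 0.47 ± 0.15.

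These slopes rested on male 1, the piece of 40 percent. Without it, 0 members had an unadjusted p under 0.05, and the median slopes were 0.0011 for the large and 0.037 for the small subunit. Male 3, the next piece at 32 percent, had the lowest sums among males and is the library with the high choroid plexus and myelin markers, and without it the count was 29. Without male 2, male 4 or female 1 it was 22, 7 or 4. In males the large subunit sum was 6446.9 CPM at 18 percent, 7064.8 CPM at 29, 5618.1 CPM at 32 and 9953.3 CPM at 40. In females the pair at 20 percent had 5053.8 and 7396.5 CPM, nearly the range of all females. Male 1 also had the highest mitochondrially encoded RNA, the lowest total count, the strongest length trend and the highest sum of endothelial and mural markers. Percent DIMPLE cannot be told apart from these in that library.

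**Figure D4:**
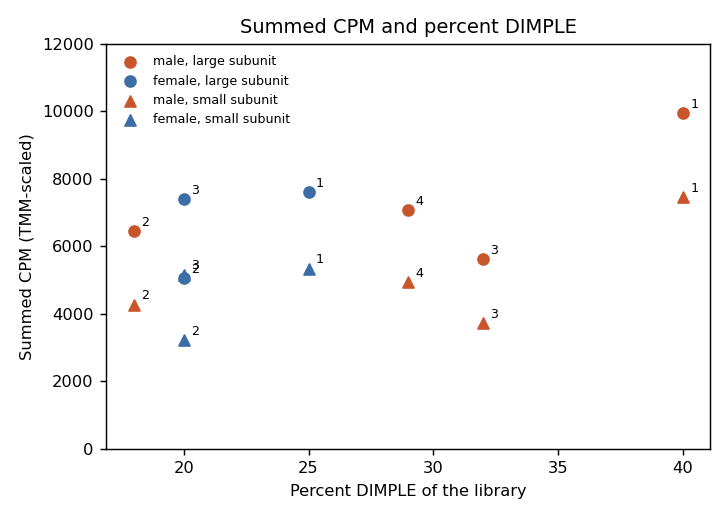
Summed CPM of the standard members (vertical axis, from 0) against percent DIMPLE of the piece (horizontal axis), for males and females, with large subunit as circles, small subunit as triangles and replicate numbers beside the points. Male 1 at 40 percent is the highest point, and the 6 libraries from 18 to 32 percent show no order.

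Negative slopes were few and small. The 3 of lowest p were Rpl7l1 with -0.13 ± 0.12, and Rpl18 and Rpl6 with -0.05 each, none under an unadjusted p of 0.05 by edgeR.

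Among the paralogs, the ratio to the parent gene varied between animals in some pairs and held in others. Rpl22l1 and Rpl22 are paralogs, and in mice the parent represses the copy. Rpl22l1 had 276.1, 93.57, 71.39 and 143.8 CPM in males 1 to 4, against 124.2, 53.98 and 158.6 CPM in females 1 to 3. Per kilobase of coding sequence it stood at 2.838, 1.999, 1.229 and 2.115 times Rpl22 in males 1 to 4, against 2.104, 1.496 and 2.988 in females 1 to 3. The paralog was thus above its parent in all 7 libraries, with overlap between the sexes, and was lowest relative to it in male 3 and female 2.

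Rps27l (chr9:66853368-66856798, GRCm39), a p53-responsive paralog of Rps27, left the shared order in 1 library. It had 133.9, 57.82, 120.3 and 68 CPM in males 1 to 4, against 83.16, 38.72 and 85.96 CPM in females 1 to 3. Rps27 itself had 404.6, 195.3, 171.4 and 247.3 CPM in males 1 to 4, against 251.4, 122.2 and 290.6 CPM in females 1 to 3. Both code for 252 bases, and their ratio was 0.702 in male 3, against 0.275 to 0.3309 in the other males and 0.2958 to 0.3307 in females. Male 3 is the library with the high choroid plexus markers, among them Ttr at 13618.0 CPM. The 10 p53 response genes had a median deviation of 0.16 there and -0.11 to 0.02 in the other 6 libraries, but they were mixed. Of the 7 libraries, male 3 had the highest Ccng1 and Mdm2 (126.4 and 90.41 CPM) and the lowest Trp53 and Zmat3 (19.43 and 28.12 CPM). The part of choroid plexus or of the p53 response in the Rps27l value was not tested. With r of 0.63 to the mean of the standard members, Rps27l followed them less than the retrocopy Rps27rt, with r of 0.98.

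Rps27rt had 45.49, 21.86, 15.03 and 28.43 CPM in males 1 to 4, against 25.24, 10.93 and 29.57 CPM in females 1 to 3, a near constant 0.0877 to 0.115 of Rps27. Given the start sequence shared by Rps27 and Rps27rt, reads of the parent may be counted there and the value is uncertain. Rpl36al, an autosomal copy of the X-linked Rpl36a, stood at 0.0795 to 0.1227 of its parent per kilobase, and its row is overlapped by Gm49383. Rpl7l1 went against the rest: it had 59.2, 72.91, 73.37 and 73.21 CPM in males 1 to 4, against 64.27, 74.65 and 65.72 CPM in females 1 to 3. It was lowest in male 1, where its parent Rpl7 was highest, with r of -0.89 to the mean of the standard members.

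**Figure D5:**
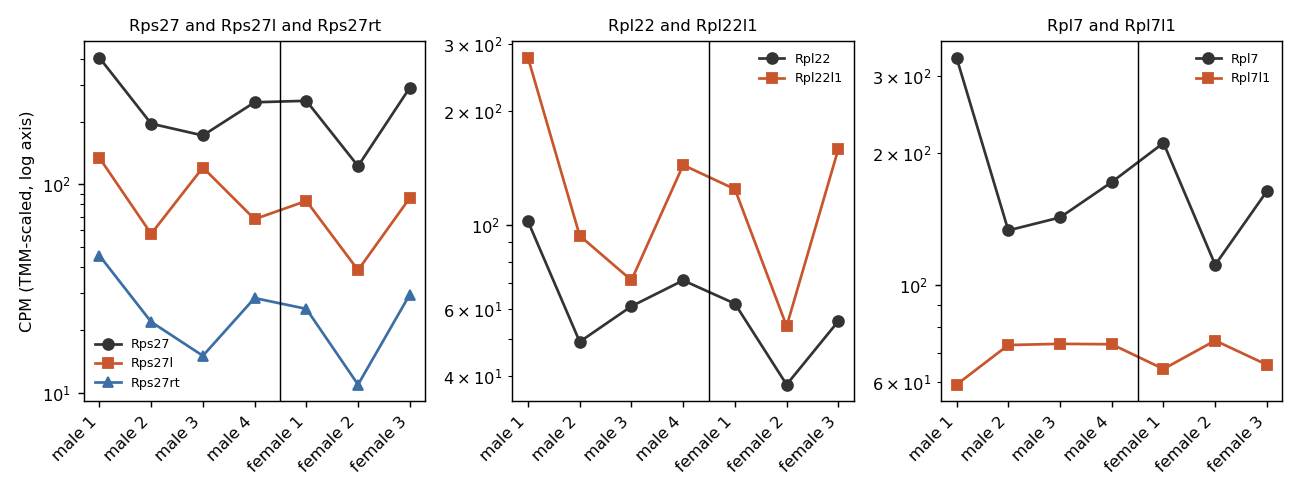
CPM (log axis) of Rps27, Rps27l and Rps27rt, of Rpl22 and Rpl22l1, and of Rpl7 and Rpl7l1 in each library, males left of the line and females right of it. Rps27l is high in male 3 where Rps27 is low, Rpl22l1 lies above Rpl22 in all libraries, and Rpl7l1 is flat.

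Paralogs known for other tissues were near absent. Rpl3l, the form of striated muscle, had 7, 7, 6 and 6 raw counts in males 1 to 4, against 2, 5 and 8 in females 1 to 3. Rpl39l, best known from testis, had 16, 8, 0 and 5 counts in males 1 to 4, against 13, 2 and 9 in females 1 to 3. Rpl10l, also a testis form, had 0 counts in the 4 males and 2 in female 1. Rps23rg1 had 25 counts in all, Rpl36-ps4 had 7, and Rps18-ps6 and Rplp2-ps1 were at 0 in every library. These 7 are the members left out by the count filter.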

How the data were processed

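The authors deposited 1 table, which per the file headers holds raw counts of each library, a normalized signal (counts over DESeq2 size factors), and female over male log2 fold changes with a Wald score, p-values and adjusted p-values. The raw counts are whole numbers. Of 89 members with a fold change in the authors' deposited table, 0 were marked. The submitters' processing notes name TopHat2 2.2.1, HTSeq 2.0.1, cutadapt, DESeq2 1.26.0 and the build GRCm39. Their roles, the strand setting and the annotation release are not given in the sources used here. Column letters in the labels tie columns to samples.

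Genes were kept by filterByExpr (at least 10 counts, total 15). TMM scaling and edgeR 4.0.16 (robust quasi-likelihood, R 4.3.3) followed, with Benjamini-Hochberg adjustment over 20420 genes and a threshold of 0.05. Designs were sex, and sex with the slope per 10 points of percent DIMPLE. CPM are TMM-scaled, log2 CPM use a prior count of 2, and n is a number of libraries. Coding lengths came from GENCODE M21 by gene ID. Alternatives included scalings, filters, DESeq2 1.42.0, limma-voom (limma 3.58.1), a surrogate variable (sva 3.50.0), a replicate block and left-out libraries. Removal of the length trend was chosen after seeing the data. The fits were tested on simulated data. Counts of any 2 libraries differed by a chi-square of at least 36.2 per degree of freedom, so none was treated as a duplicate.

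Members and gene lists were chosen with earlier results of these data known. Named genes were the members of lowest p in each direction (5 for sex, 3 for the slope), the 3 highest and lowest of each subunit, paralogs and X-linked members, and up to 3 of lowest p from every other list. Some genes that the rule takes are not reported here. Genes named for their range, correlation or family were chosen after their values were seen.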

Additional observations from a re-analysis of the deposited data

Results flagged for a closer look

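The gap of the highest or lowest library to its nearest neighbour, as a share of the whole range, was computed for 42 values in the 4 males, and 4 passed Dixon's 95% critical value, where chance flags about 1 in 20. Rpl14 was flagged at 0.892: male 3 had 148 CPM and the other males 164.6 to 166.6 CPM. Rpl3 was flagged at 0.889, also for male 3, with 318.9 CPM against 375.1 to 382.1 CPM in the other males. Rpl7l1 was flagged at 0.968 for male 1, with 59.2 CPM against 72.91 to 73.37 CPM in the other males. Rpl36a-ps1 was flagged at 0.895 for male 1, with 1.041 CPM against 0.3474 to 0.4199 CPM in the other males.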

How the results depend on the processing

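The count of called members was 0 for sex and 0 for percent DIMPLE under every alternative run, and the 30 named members gave an adjusted p of at least 0.434 in the 1050 planned refits by edgeR, DESeq2 and limma. At an unadjusted p under 0.05 the count with a positive slope was 14 as reported, 9 with total-count scaling, 8 with limma-voom, 29 with no low-count filter, 22 without sex in the model and 10 with the length trend removed. Leaving out 1 library gave 0 to 29, and median slopes from 0.0011 to 0.59 for the large and from 0.037 to 0.71 for the small subunit. Replicate numbers were not treated as pairs in the main fits. Same-numbered males and females correlated at 0.307, 0.169 and 0.0318, and differently numbered ones at -0.465 to 0.303. The same-numbered female was the closest for males 1 and 2 but not for male 3, so these values do not decide whether the numbers mark pairs. With the replicate block the count was 0 and the median slopes were -0.18 and -0.19. That design has nearly as many coefficients as libraries, so its count and slopes decide little. With the length trend removed the median slopes were 0.15 and 0.17 and the median male over female log2 fold changes 0.04 and 0.05. The median male over female log2 fold change also changed sign with 1 surrogate variable for the large subunit (-0.02) and with the males of columns named mb alone (-0.08 and -0.10), against 0.28 and 0.31 with those named mv alone. Apart from the length trend, the cause of these shifts was not tested. Total counts were 29049604 to 46494588 per library, and the effect of depth on the calls was not tested.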
